A study of Felis catus with 25 samples.

Results

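Fibroblasts of the cat cornea that had been exposed to transforming growth factor beta 1 (TGFb1) and then kept in the drug UK-5099 until day 5 were compared with untreated fibroblasts of day 0. The comparison took the 10 libraries whose titles name these conditions, 5 of UK-5099 (UK) and 5 of untreated fibroblasts (FB), out of 25 libraries of polyadenylated RNA from cultured cells of the domestic cat (Felis catus). UK cells received TGFb1 at 1 ng/ml for 2 days, after which it was taken away, and then 30 uM UK-5099 for 3 days. FB cells received no agent and were taken at day 0, after quiescence. No library of cells left without a drug from day 2 to day 5 was analysed here, so UK-5099, the earlier TGFb1 and the time in culture cannot be told apart. Replicates are said in the labels to be biological and in the series' design to be independent, without naming separate donors or cultures, so p-values measure the spread between these libraries.

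Pyruvate made by glycolysis enters mitochondria through the mitochondrial pyruvate carrier, a pair of inner membrane proteins encoded by MPC1 and MPC2, and UK-5099 blocks that carrier. Inside mitochondria pyruvate feeds the tricarboxylic acid (TCA) cycle, either as acetyl-CoA through pyruvate dehydrogenase or as oxaloacetate through pyruvate carboxylase. In a wounded cornea, TGFb1 turns stromal cells into myofibroblasts, which hold smooth muscle actin (ACTA2) and lay down opaque scar matrix, whereas resting keratocytes make the small proteoglycans that keep collagen fibrils evenly spaced.

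UK replicate 5 stood apart from the other UK libraries before any comparison was made. Levels are given as CPM, the counts of a gene per M counts of its library, with library totals scaled by the TMM method of edgeR. Across 9981 genes with enough counts to test, UK replicate 5 lay more than 2-fold above the mean of the other UK libraries in 2165 genes and more than 2-fold below it in 2910. The same numbers were at most 16 and 7 for UK replicates 1 to 4. Its Pearson correlation of log2 CPM with the other UK libraries was 0.809 to 0.830 across genes, against 0.991 to 0.995 among those 4 libraries and 0.993 to 0.995 among FB libraries, and 0.772 to 0.788 with FB. Genes that were high in it were short and genes that were low were long, with a median genomic span in RefSeq of 12.3 kb for the first set, 66.5 kb for the second and 30.6 kb for the rest. Among genes for ribosomal proteins (RPL, RPS), 33 of 34 lay more than 2-fold above the other UK libraries, and so did 30 of 34 NDUF genes of respiratory complex I. NCOA2, a nuclear receptor coactivator, had 1.39 CPM in UK replicate 5 and 75.1 to 83.2 CPM in the others, while RPL24, a ribosomal protein, had 1712 CPM there and 198 to 228 CPM in the others. The labels give no reason for the difference, so results are given with all 10 libraries and without UK replicate 5.

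**Figure D1:**
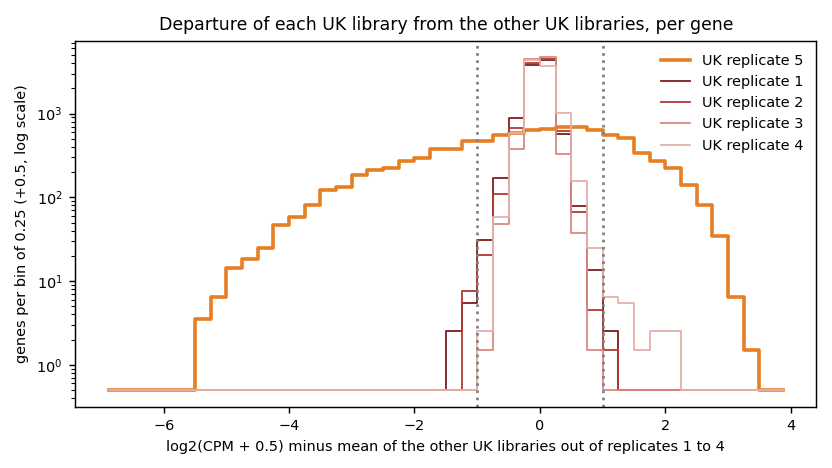
For each UK library, the number of genes (vertical axis, log scale, with 0.5 added to each bin of 0.25) is plotted by how far the gene's log2(CPM + 0.5) lay from the mean of the other UK libraries out of replicates 1 to 4 (horizontal axis, 9981 genes). Replicates 1 to 4 stay almost wholly between the dotted lines at 2-fold, with at most 16 genes above and 7 below, and replicate 5 has 2165 above and 2910 below.

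Depth was 14.8 to 25.2 M counts per UK library, the lowest being UK replicate 5, and 17.5 to 24.2 M per FB library. The 10 highest genes of a library took 22.7% ± 3.76 of its counts in UK and 15.3% ± 0.603 in FB (SD, n = 5 each, exact permutation p = 0.00794, two-sided). Without UK replicate 5 the share in UK was 24.3% ± 1.19 (n = 4, exact permutation p = 0.0159). The labelled cell type was checked against markers of corneal stromal fibroblasts, of which 9 of 10 were in the files and 8 were tested. Their summed level was 102536 to 123139 CPM in UK replicates 1 to 4, 82265 CPM in UK replicate 5 and 63718 to 77173 CPM in FB. Most of that sum came from COL1A1 and COL1A2, and single markers moved in both directions. In the test given below, 4 of the 8 were higher in UK and 3 lower (5 and 3 without UK replicate 5). Of all genes, 20.6% were higher and 19.8% lower (39.8% and 40.2% without UK replicate 5). In bulk RNA, fewer cells of a type and less RNA per cell cannot be told apart, here and in all that follows. The epithelial markers KRT3, KRT12, TP63 and CLDN4 were at 0 in all 10 libraries, and so were the leukocyte markers PTPRC, AIF1 and CD3D.

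The day 5 UK libraries differed from the fibroblasts of day 0 in a large part of the transcriptome. Of 9981 genes tested with edgeR's quasi-likelihood test, 4034 (40.4%) changed at an adjusted p under 0.05, 2059 of them higher in UK (20.6%) and 1975 lower (19.8%). Changes of at least 2-fold were 1156 higher (11.6%) and 1009 lower (10.1%). Leaving out UK replicate 5 brought the number to 8067 of 10081 (80%), 4017 higher (39.8%) and 4050 lower (40.2%). All 4034 genes were called in both and in the same direction. A further 3948 genes were called only without that library, and for 605 of these the fold change had the other sign with all 10. The median log2 fold change over all tested genes was 0.071 with all 10 libraries and -0.0048 without UK replicate 5. Scaling by library totals alone called 41% of genes, 16.1% higher and 24.9% lower, with a median log2 fold change of -0.090. The share of calls that were higher was then 39.2%, against 51.0% with TMM scaling (43.3% against 49.8% without UK replicate 5). All 5 UK libraries lay above all 5 FB libraries in 17.5% of tested genes and below them in 21.2%. In what follows, rose and fell are used of genes called with all 10 libraries, which were all called without UK replicate 5 too. Counts of list members below are to be read beside the shares over all genes given here.

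**Figure D2:**
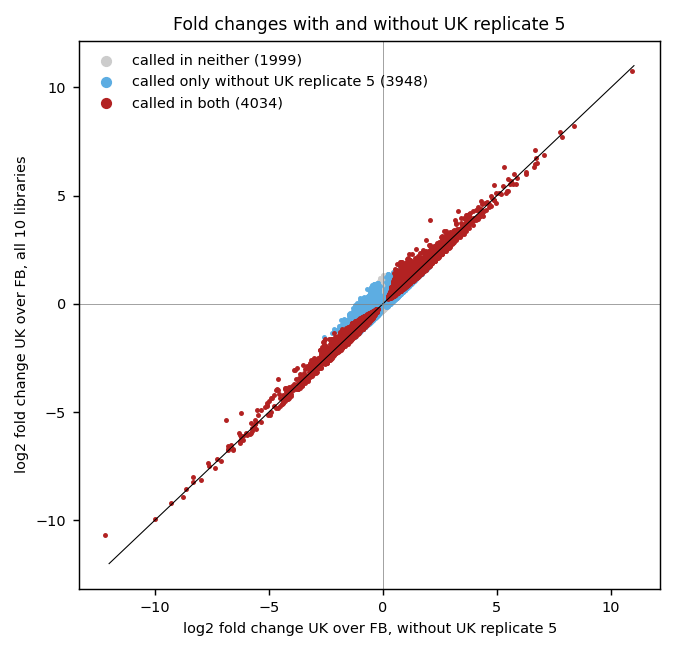
Each dot is 1 of the 9981 genes tested in both, placed by its log2 fold change of UK over FB without UK replicate 5 (horizontal axis) and with all 10 libraries (vertical axis), and the line marks equality. Red dots are the 4034 genes called in both, blue dots the 3948 called only without replicate 5, and the red dots lie where both fold changes have the same sign.

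Smooth muscle actin, the usual marker of the myofibroblast, was higher in UK than in the untreated fibroblasts. ACTA2 stood at 2977, 2121, 2630.4, 2495 and 5336 CPM in UK replicates 1 to 5, against 1926, 1645, 1905, 1684 and 1715 CPM in FB replicates 1 to 5. All UK libraries lay above all FB libraries, and UK replicate 5 held by far the highest level. ACTA2 had a log2 fold change of 0.81 ± 0.23 (SE, edgeR adjusted p = 0.0184), and of 0.52 ± 0.082 without UK replicate 5 (adjusted p = 1.39e-05). In a fit of all 25 libraries the call was lost (adjusted p = 0.137). ACTC1, the cardiac alpha actin, rose more steeply. ACTC1 stood at 1880.3, 888, 1530.4, 1276 and 2267 CPM in UK replicates 1 to 5, against 385, 376, 397, 392 and 421 CPM in FB replicates 1 to 5. The lowest UK library had more than the highest FB library, and UK replicate 5 was again at the top. ACTC1 had a log2 fold change of 1.99 ± 0.23 (SE, edgeR adjusted p = 5.54e-05), and of 1.82 ± 0.14 without UK replicate 5 (adjusted p = 8.94e-10). The actins ACTA2, ACTG2 and ACTC1 are near-identical in coding sequence, so counts may be shared among them and each is uncertain.

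Of the list of myofibroblast contractile genes, 6 of 15 tested members were higher and 4 lower with all 10 libraries, and 9 higher and 7 lower of 17 without UK replicate 5. The list's median log2 fold change was 0.51 with all 10 libraries and 0.45 without UK replicate 5. SYNPO2, synaptopodin-2, an actin-bundling protein of the Z-disc, averaged 18.6 ± 9.81 CPM in UK and 0.486 ± 0.215 CPM in FB (SD, n = 5 each), a log2 fold change of 5.22 ± 0.68 (SE, edgeR adjusted p = 1.48e-04), against 5.48 without UK replicate 5. It stood at only 1.56 CPM in UK replicate 5, still above the highest FB library at 0.857 CPM. TPM1, tropomyosin 1, which winds along actin filaments, averaged 5117 ± 782 CPM in UK and 3502 ± 167 CPM in FB (SD, n = 5 each), a log2 fold change of 0.55 ± 0.12 (SE, edgeR adjusted p = 0.0052), against 0.45 without UK replicate 5. The genes that fell were CNN1 (calponin, -0.75 ± 0.17), SMTN (smoothelin, -0.79 ± 0.14), MYL9 (myosin regulatory light chain, -0.56 ± 0.12) and ACTN1 (alpha-actinin, -1.31 ± 0.27), all as log2 fold changes ± SE (-0.63, -0.90, -0.50 and -1.11 without UK replicate 5). Contractile genes moved in both directions, with 6 up and 4 down, where 20.6% of all genes were higher and 19.8% lower. Without UK replicate 5 these shares were 39.8% and 40.2%. TAGLN and PALLD of the list were not analysed here.

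**Figure D3:**
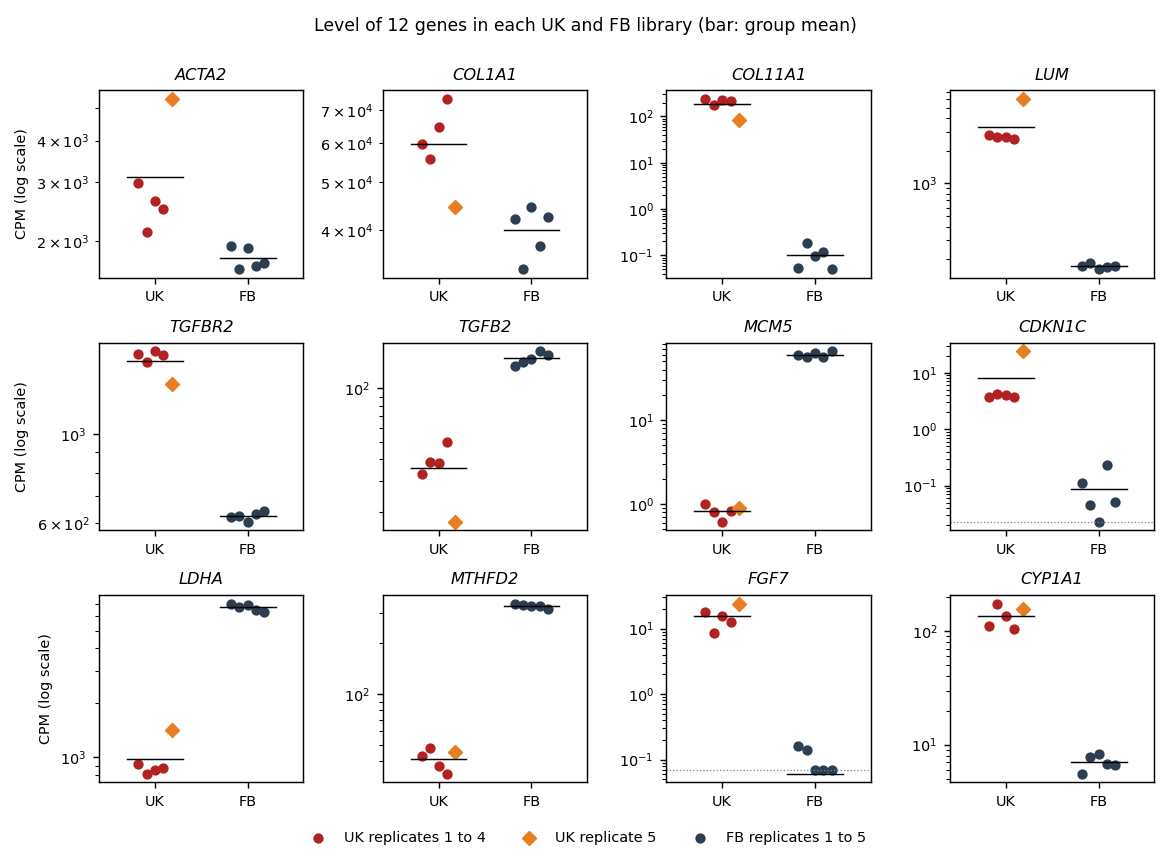
Level of 12 genes in each library (CPM, log scale, a scale of its own in each panel), with UK on the left and FB on the right. Red circles are UK replicates 1 to 4, the orange diamond UK replicate 5, dark circles FB replicates 1 to 5, bars the group means, and points on a dotted line are libraries with 0 counts. UK and FB do not overlap in any of the 12 panels except COL1A1, where UK replicate 5 lies among the FB libraries.

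Collagen genes moved in both directions. Of the collagen chains, 5 of 18 tested members were higher and 10 lower with all 10 libraries, and 6 higher and 11 lower without UK replicate 5, with a median log2 fold change of -0.57 with all 10 libraries and -0.49 without UK replicate 5. Shares over all genes were 20.6% higher and 19.8% lower (39.8% and 40.2% without UK replicate 5). Scaling by library totals alone left 3 collagen chains higher. COL11A1, a minor fibrillar chain best known from cartilage, showed the largest rise of all genes that met the level and overlap rules. COL11A1 stood at 239, 173, 221, 214 and 85.4 CPM in UK replicates 1 to 5, against 0.0547, 0.185, 0.095, 0.117 and 0.0504 CPM in FB replicates 1 to 5. Every UK library had at least 85.4 CPM, and FB libraries were near the limit of detection, with 11 counts in all. COL11A1 had a log2 fold change of 10.75 ± 0.44 (SE, edgeR adjusted p = 8.23e-08), and of 10.92 ± 0.16 without UK replicate 5 (adjusted p = 8.08e-19). COL1A1 and COL1A2, the chains of type I collagen and both abundant here, were called higher by a small margin. COL1A1 stood at 59889.9, 55774, 64763, 73779 and 44416 CPM in UK replicates 1 to 5, against 42023, 33285, 44508, 37166 and 42530.1 CPM in FB replicates 1 to 5. UK replicate 5 lay within the range of FB, at the level of the highest FB library, and the other UK libraries were all above it. COL1A1 had a log2 fold change of 0.58 ± 0.17 (SE, edgeR adjusted p = 0.0192), and of 0.67 ± 0.10 without UK replicate 5 (adjusted p = 7.24e-06). The COL1A1 call was lost without FB replicate 2 or 4, under library totals alone and with a block for replicate number, with adjusted p between 0.0546 and 0.0784. COL1A2 averaged 39125 ± 5462 CPM in UK and 28126 ± 1289.6 CPM in FB (SD, n = 5 each), a log2 fold change of 0.48 ± 0.14 (SE, edgeR adjusted p = 0.0203), against 0.56 without UK replicate 5. Leaving out FB replicate 2, 3 or 4, library totals alone, a block for replicate number or a fit of all 25 libraries each ended the COL1A2 call, with adjusted p between 0.0506 and 0.24.

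COL8A1, a network-forming chain made by corneal cells, averaged 3.25 ± 0.662 CPM in UK and 0.175 ± 0.139 CPM in FB (SD, n = 5 each), a log2 fold change of 4.16 ± 0.45 (SE, edgeR adjusted p = 3.73e-05), against 4.26 without UK replicate 5. COL12A1, which coats collagen fibrils, also rose, by 1.29 ± 0.28 on the log2 scale (1.48 without UK replicate 5). The falls were led by COL14A1, another fibril-associated chain. COL14A1 averaged 5.02 ± 2.01 CPM in UK and 67.7 ± 4.58 CPM in FB (SD, n = 5 each), a log2 fold change of -3.74 ± 0.32 (SE, edgeR adjusted p = 7.38e-06), against -3.53 without UK replicate 5. COL15A1, a chain of the basement membrane zone, averaged 176 ± 20.3 CPM in UK and 795 ± 27.6 CPM in FB (SD, n = 5 each), a log2 fold change of -2.17 ± 0.11 (SE, edgeR adjusted p = 2.15e-07), against -2.12 without UK replicate 5. COL5A3, a chain of type V collagen, averaged 79.5 ± 5.13 CPM in UK and 384 ± 12.2 CPM in FB (SD, n = 5 each), a log2 fold change of -2.27 ± 0.088 (SE, edgeR adjusted p = 7.23e-08), against -2.29 without UK replicate 5. The basement membrane chains COL4A1 and COL4A2 fell by 1.93 and 1.29, and COL6A3 of microfibrillar collagen by 1.30, on the log2 scale (-1.74, -1.15 and -1.14 without UK replicate 5). COL3A1, the fibrillar chain of type III collagen, fell by 0.32 (-0.29 without UK replicate 5).

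Among enzymes and chaperones that fold, hydroxylate and crosslink collagen, 5 of 21 tested members were higher and 10 lower with all 10 libraries, and 8 higher and 11 lower without UK replicate 5, with a median log2 fold change of -0.27 with all 10 libraries and -0.36 without UK replicate 5. Under library totals alone none was higher and 11 were lower. LOXL1, a lysyl oxidase that acts on elastic fibres, fell most. LOXL1 stood at 80.4, 74.8, 83, 95.6 and 180.3 CPM in UK replicates 1 to 5, against 722, 633, 788, 664 and 768 CPM in FB replicates 1 to 5. UK replicate 5 had more than the other UK libraries but was still far below every FB library. LOXL1 had a log2 fold change of -2.80 ± 0.25 (SE, edgeR adjusted p = 1.10e-05), and of -3.10 ± 0.084 without UK replicate 5 (adjusted p = 8.44e-16). LOXL2, a lysyl oxidase that crosslinks collagen, averaged 446 ± 106 CPM in UK and 1395 ± 26.9 CPM in FB (SD, n = 5 each), a log2 fold change of -1.64 ± 0.18 (SE, edgeR adjusted p = 3.81e-05), against -1.51 without UK replicate 5. PLOD2, the lysyl hydroxylase of collagen telopeptides, averaged 71 ± 8.01 CPM in UK and 193 ± 11.2 CPM in FB (SD, n = 5 each), a log2 fold change of -1.44 ± 0.11 (SE, edgeR adjusted p = 3.08e-06), against -1.42 without UK replicate 5. TGM2 (transglutaminase 2) fell by 1.90, LOXL4 by 2.16 and SERPINH1 (the collagen chaperone HSP47) by 0.72 on the log2 scale (-1.76, -1.99 and -0.71 without UK replicate 5). TGM2 overlaps RPRD1B, and LOXL4 overlaps R3HCC1L, in the RefSeq annotation. P4HA2, a prolyl 4-hydroxylase subunit, averaged 836 ± 68.6 CPM in UK and 629 ± 15.9 CPM in FB (SD, n = 5 each), a log2 fold change of 0.41 ± 0.091 (SE, edgeR adjusted p = 0.00443), against 0.41 without UK replicate 5. That call for P4HA2 was lost under library totals alone (log2 fold change 0.26, adjusted p = 0.0642).

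Matricellular and elastic glycoproteins, secreted proteins that tune contacts between cells and matrix, changed in both directions. 10 of 21 tested members were higher and 4 lower with all 10 libraries, and 11 higher and 9 lower without UK replicate 5, with a median log2 fold change of 0.60 with all 10 libraries and 0.70 without UK replicate 5. Over all genes the shares were 20.6% higher and 19.8% lower with all 10 libraries, and 39.8% and 40.2% without UK replicate 5. COMP, a pentameric thrombospondin of cartilage and tendon, was close to absent in FB. COMP stood at 8.66, 10.9, 9.78, 10.2 and 19.2 CPM in UK replicates 1 to 5, against 0.0547, 0.138, 0.142, 0.195 and 0.353 CPM in FB replicates 1 to 5. No FB library came near the lowest UK library. COMP had a log2 fold change of 5.99 ± 0.39 (SE, edgeR adjusted p = 1.16e-06), and of 5.75 ± 0.21 without UK replicate 5 (adjusted p = 4.33e-14). CILP, a cartilage matrix protein, averaged 10.05 ± 2.75 CPM in UK and 0.212 ± 0.145 CPM in FB (SD, n = 5 each), a log2 fold change of 5.56 ± 0.40 (SE, edgeR adjusted p = 2.46e-06), against 5.70 without UK replicate 5. FBLN5, which assembles elastic fibres, averaged 879.9 ± 192 CPM in UK and 242 ± 13 CPM in FB (SD, n = 5 each), a log2 fold change of 1.86 ± 0.15 (SE, edgeR adjusted p = 5.20e-06), against 1.73 without UK replicate 5. POSTN (periostin) and THBS1 (thrombospondin 1), both matricellular proteins that TGFb1 is known to induce, were higher in all UK libraries than in any FB library. POSTN averaged 1163 ± 109.6 CPM in UK and 497 ± 31.9 CPM in FB (SD, n = 5 each), a log2 fold change of 1.23 ± 0.10 (SE, edgeR adjusted p = 7.11e-06), against 1.28 without UK replicate 5. THBS1 averaged 23385 ± 6752 CPM in UK and 9824 ± 821 CPM in FB (SD, n = 5 each), a log2 fold change of 1.25 ± 0.22 (SE, edgeR adjusted p = 0.00116), against 1.41 without UK replicate 5. THBS1 overlaps FSIP1 in the RefSeq annotation. The call for FN1, fibronectin, depended on the test and on UK replicate 5. FN1 stood at 40767, 42749, 45919, 51304 and 10471 CPM in UK replicates 1 to 5, against 19436, 19496, 18358, 22666 and 21406 CPM in FB replicates 1 to 5. UK replicate 5 had the lowest level of all 10 libraries, and UK replicates 1 to 4 lay above FB. FN1 had a log2 fold change of 0.92 ± 0.35 (SE, edgeR adjusted p = 0.0587), and of 1.15 ± 0.086 without UK replicate 5 (adjusted p = 7.48e-10). DESeq2 on all 10 libraries, quality weights and a fit of all 25 libraries also called FN1 higher, with adjusted p of at most 0.018.

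TGFBI, the TGFb-induced protein that accumulates in inherited corneal dystrophies, averaged 30.00 ± 8.04 CPM in UK and 109 ± 4.77 CPM in FB (SD, n = 5 each), a log2 fold change of -1.86 ± 0.17 (SE, edgeR adjusted p = 1.35e-05), against -2.03 without UK replicate 5. CCN2 stood at 2003, 1649, 2115, 2740.5 and 7823 CPM in UK replicates 1 to 5, against 4536, 4526, 4494, 4569 and 5087 CPM in FB replicates 1 to 5. CCN2 encodes connective tissue growth factor, and its level was below FB in UK replicates 1 to 4 and above FB in UK replicate 5. CCN2 had a log2 fold change of -0.51 ± 0.40 (SE, edgeR adjusted p = 0.347), and of -1.13 ± 0.11 without UK replicate 5 (adjusted p = 1.70e-08). Among metalloproteinases and their inhibitors, 5 of 12 tested members were higher and 1 lower with all 10 libraries, and 7 higher and 3 lower without UK replicate 5. The shares over all genes were 20.6% higher and 19.8% lower (39.8% and 40.2% without UK replicate 5). MMP14, a membrane-bound collagenase, averaged 625 ± 159 CPM in UK and 309.7 ± 13.2 CPM in FB (SD, n = 5 each), a log2 fold change of 1.01 ± 0.19 (SE, edgeR adjusted p = 0.00144), against 1.16 without UK replicate 5. TIMP2, an inhibitor of metalloproteinases, averaged 1127 ± 488 CPM in UK and 390.0 ± 15 CPM in FB (SD, n = 5 each), a log2 fold change of 1.53 ± 0.24 (SE, edgeR adjusted p = 4.50e-04), against 1.22 without UK replicate 5. ADAMTS9, a protease that cleaves versican, averaged 3.59 ± 1.54 CPM in UK and 0.559 ± 0.209 CPM in FB (SD, n = 5 each), a log2 fold change of 2.69 ± 0.41 (SE, edgeR adjusted p = 4.01e-04), against 2.92 without UK replicate 5. The only member that fell was ADAMTS4, an aggrecanase, by 2.20 on the log2 scale with all 10 libraries (-2.25 without UK replicate 5), and both groups were under 5 CPM.

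The small leucine-rich proteoglycans of the corneal stroma and other keratocyte genes were higher in UK. Of that list, 10 of 11 tested members were higher and 0 lower with all 10 libraries, and 10 higher and 1 lower without UK replicate 5. The median log2 fold change was 2.02 with all 10 libraries and 2.00 without UK replicate 5, beside 0.071 and -0.0048 over all genes. LUM, lumican, binds collagen fibrils and is needed for a clear cornea. LUM stood at 2790.1, 2693, 2665, 2577 and 6015 CPM in UK replicates 1 to 5, against 173, 187, 162, 171 and 172 CPM in FB replicates 1 to 5. Every UK library was at 2577 CPM or more, and FB libraries were within a narrow range far below. LUM had a log2 fold change of 4.27 ± 0.27 (SE, edgeR adjusted p = 1.12e-06), and of 3.95 ± 0.060 without UK replicate 5 (adjusted p = 8.08e-19). DCN, decorin, also binds fibrils and can hold TGFb1. DCN stood at 975, 1220.5, 1083, 1129.7 and 876 CPM in UK replicates 1 to 5, against 342, 347, 341, 336 and 313 CPM in FB replicates 1 to 5. The lowest UK library was replicate 5, still above all of FB. DCN had a log2 fold change of 1.65 ± 0.11 (SE, edgeR adjusted p = 1.57e-06), and of 1.71 ± 0.063 without UK replicate 5 (adjusted p = 4.10e-14). PODN, podocan, a related proteoglycan, averaged 40.8 ± 9.2 CPM in UK and 4.29 ± 0.506 CPM in FB (SD, n = 5 each), a log2 fold change of 3.25 ± 0.18 (SE, edgeR adjusted p = 4.06e-07), against 3.11 without UK replicate 5. PRELP, OGN (osteoglycin), ASPN (asporin) and FMOD (fibromodulin) rose by 2.54 ± 0.42, 2.02 ± 0.22, 1.58 ± 0.18 and 1.19 ± 0.38 on the log2 scale (2.80, 2.16, 1.65 and 1.44 without UK replicate 5). OGN and ASPN overlap CENPP in the RefSeq annotation. The corneal crystallins ALDH1A1 and ALDH3A1, enzymes that keratocytes hold in large amounts, rose by 2.19 ± 0.27 and 3.96 ± 0.44 (2.00 and 3.44 without UK replicate 5). ALDH3A1 remained low at 7.33 CPM in UK replicates 1 to 4 and 24.1 CPM in UK replicate 5, against 0.678 CPM in FB. It is also counted below among targets of the aryl hydrocarbon receptor. TKT, transketolase, was the 1 tested member not called with all 10 libraries, and it was lower without UK replicate 5. KERA, BGN and PTGDS of the list were not analysed here.

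Of ligands, receptors and transducers of the TGFb pathway, 6 of 23 tested members were higher and 7 lower with all 10 libraries, and 11 higher and 8 lower without UK replicate 5, and the median log2 fold change was 0.053 with all 10 libraries and 0.16 without UK replicate 5. Shares over all genes were 20.6% higher and 19.8% lower with all 10 libraries, and 39.8% and 40.2% without UK replicate 5. The median over all genes was 0.071 and -0.0048. TGFB2 and TGFB3, ligands like TGFb1, fell. TGFB2 stood at 32.9, 38.3, 38, 49.95 and 17.7 CPM in UK replicates 1 to 5, against 133, 142, 146, 162 and 155 CPM in FB replicates 1 to 5. Each UK library was below each FB library. TGFB2 had a log2 fold change of -2.06 ± 0.23 (SE, edgeR adjusted p = 5.62e-05), and of -1.89 ± 0.095 without UK replicate 5 (adjusted p = 2.86e-12). TGFB3 averaged 17.6 ± 2.57 CPM in UK and 56.9 ± 5.04 CPM in FB (SD, n = 5 each), a log2 fold change of -1.69 ± 0.13 (SE, edgeR adjusted p = 4.06e-06), against -1.77 without UK replicate 5. TGFB1 itself was not called, at 51.1 ± 9.46 CPM in UK and 42.4 ± 3.47 CPM in FB (SD, n = 5 each), and it overlaps TMEM91 in the RefSeq annotation. TGFBR2, the type II receptor that binds the ligand, averaged 1517 ± 109 CPM in UK and 627 ± 13.6 CPM in FB (SD, n = 5 each), a log2 fold change of 1.27 ± 0.091 (SE, edgeR adjusted p = 2.42e-06), against 1.31 without UK replicate 5.

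The co-receptors TGFBR3 (betaglycan) and ENG (endoglin) rose by 2.43 ± 0.49 and 0.59 ± 0.10 on the log2 scale (2.7 and 0.60 without UK replicate 5). LTBP2 and LTBP4, which encode a relative of the latent TGFb binding proteins of the matrix and 1 of these proteins, rose by 2.78 ± 0.22 and 1.00 ± 0.14 (2.94 and 1.02 without UK replicate 5). SMAD3, the signal transducer of the activated receptors, averaged 63.7 ± 28.8 CPM in UK and 179.9 ± 6.09 CPM in FB (SD, n = 5 each), a log2 fold change of -1.50 ± 0.39 (SE, edgeR adjusted p = 0.0107), against -1.24 without UK replicate 5. Its level in UK replicate 5 was 13.1 CPM, well under the 68.4 to 83.9 CPM of the other UK libraries. INHBA, the activin A chain, fell by 1.59 and SMURF2, a ubiquitin ligase for the receptors, by 1.20 (-1.91 and -1.07 without UK replicate 5). In the related pathway of bone morphogenetic proteins (BMP), 2 of 17 tested members were higher and 7 lower with all 10 libraries, and 5 higher and 9 lower without UK replicate 5. Shares over all genes were 20.6% higher and 19.8% lower (39.8% and 40.2% without UK replicate 5). BMP4, a ligand, averaged 19.9 ± 2.93 CPM in UK and 2.29 ± 0.569 CPM in FB (SD, n = 5 each), a log2 fold change of 3.12 ± 0.19 (SE, edgeR adjusted p = 7.92e-07), against 3.04 without UK replicate 5. The secreted BMP antagonists NOG (noggin) and GREM1 (gremlin 1) fell by 3.90 and 2.62 on the log2 scale (-4.27 and -2.31 without UK replicate 5). NOG was low throughout, at 0.183 CPM in UK and 2.55 CPM in FB. ID1, a transcription factor that BMP signalling induces, differed widely among UK libraries. ID1 stood at 1.01, 1.67, 1.38, 2.59 and 12.6 CPM in UK replicates 1 to 5, against 34.6, 40.6, 49.1, 40.8 and 42.4 CPM in FB replicates 1 to 5. The highest UK library was replicate 5, at 12.6 CPM and was the nearest to FB. ID1 had a log2 fold change of -3.48 ± 0.67 (SE, edgeR adjusted p = 0.00189), and of -4.61 ± 0.16 without UK replicate 5 (adjusted p = 2.23e-14).

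Among targets and regulators of the mechanosensitive factors YAP and SRF, 2 of 16 tested members were higher and 5 lower with all 10 libraries, and 3 higher and 10 lower without UK replicate 5. Shares over all genes were 20.6% higher and 19.8% lower (39.8% and 40.2% without UK replicate 5). ANKRD1, a much used YAP target, averaged 33.5 ± 19.1 CPM in UK and 228 ± 17.4 CPM in FB (SD, n = 5 each), a log2 fold change of -2.77 ± 0.33 (SE, edgeR adjusted p = 8.08e-05), against -3.18 without UK replicate 5. ZYX, zyxin, a focal adhesion protein, averaged 227 ± 33.7 CPM in UK and 409 ± 37.5 CPM in FB (SD, n = 5 each), a log2 fold change of -0.85 ± 0.12 (SE, edgeR adjusted p = 2.84e-04), against -0.95 without UK replicate 5. ZYX overlaps FAM131B and EPHA1 in the RefSeq annotation. Of integrins and focal adhesion genes, 1 of 19 tested members were higher and 9 lower with all 10 libraries, and 8 higher and 11 lower without UK replicate 5, with a median log2 fold change of -0.59 with all 10 libraries and -0.46 without UK replicate 5. ITGA8, the alpha 8 chain that pairs with beta 1 to bind RGD ligands, fell most. ITGA8 stood at 7.4, 4.96, 4.94, 4.64 and 3.36 CPM in UK replicates 1 to 5, against 98.1, 106, 107, 118 and 108 CPM in FB replicates 1 to 5. The groups did not come close to each other. ITGA8 had a log2 fold change of -4.40 ± 0.20 (SE, edgeR adjusted p = 1.60e-07), and of -4.30 ± 0.10 without UK replicate 5 (adjusted p = 2.27e-16). ITGA3, a laminin-binding chain, averaged 114 ± 7.69 CPM in UK and 295 ± 23.1 CPM in FB (SD, n = 5 each), a log2 fold change of -1.38 ± 0.10 (SE, edgeR adjusted p = 2.19e-06), against -1.34 without UK replicate 5. PXN, paxillin, an adaptor of focal adhesions, averaged 213 ± 18.9 CPM in UK and 499 ± 22.8 CPM in FB (SD, n = 5 each), a log2 fold change of -1.22 ± 0.10 (SE, edgeR adjusted p = 4.30e-06), against -1.17 without UK replicate 5. ITGB5, a chain of a vitronectin receptor, averaged 544 ± 63.9 CPM in UK and 402 ± 11.3 CPM in FB (SD, n = 5 each), a log2 fold change of 0.44 ± 0.10 (SE, edgeR adjusted p = 0.00667), against 0.50 without UK replicate 5. Under library totals alone the ITGB5 call was lost (log2 fold change 0.29, adjusted p = 0.11). ITGAV and ITGA11 were called higher, and ITGA5 lower, without UK replicate 5 but not with all 10 libraries.

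Genes of the cell cycle were lower in UK almost throughout. Of S phase genes, 1 of 22 tested members were higher and 18 lower with all 10 libraries, and 1 higher and 20 lower without UK replicate 5, with a median log2 fold change of -2.39 with all 10 libraries and -2.64 without UK replicate 5. For G2 and mitosis, 0 of 23 tested members were higher and 21 lower with all 10 libraries, and 0 higher and 22 lower without UK replicate 5, with a median of -4.47 with all 10 libraries and -4.36 without UK replicate 5. The FB cells had been made quiescent before day 0, yet they held these transcripts at levels such as 78.4 CPM for RRM2 and 21.5 CPM for CCNA2. CDC20, the activator of the anaphase-promoting complex, fell furthest. UK libraries held 1 count of CDC20 in all, in replicate 5, and FB libraries held 2833. The level was 2639-fold lower in UK (95% counting interval 473 to 104278). MCM5, a subunit of the replicative helicase, had one of the smallest p-values of all genes. MCM5 stood at 1.01, 0.812, 0.617, 0.835 and 0.901 CPM in UK replicates 1 to 5, against 59, 56.8, 63.5, 56.6 and 66.2 CPM in FB replicates 1 to 5. Replicate 5 of UK lay in the midst of its group. MCM5 had a log2 fold change of -6.17 ± 0.16 (SE, edgeR adjusted p = 9.86e-09), and of -6.20 ± 0.11 without UK replicate 5 (adjusted p = 7.20e-18). RRM2, the ribonucleotide reductase subunit made for S phase, was a further member of the largest falls. RRM2 stood at 0.353, 0.722, 0.237, 0.251 and 0.656 CPM in UK replicates 1 to 5, against 70.7, 82.7, 73.4, 76.7 and 88.5 CPM in FB replicates 1 to 5. Every UK library was under 1 CPM. RRM2 had a log2 fold change of -7.49 ± 0.32 (SE, edgeR adjusted p = 1.06e-07), and of -7.63 ± 0.16 without UK replicate 5 (adjusted p = 2.74e-17).

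CCNA2, cyclin A2, which drives S phase and entry into mitosis, averaged 0.309 ± 0.106 CPM in UK and 21.5 ± 2.79 CPM in FB (SD, n = 5 each), a log2 fold change of -6.05 ± 0.23 (SE, edgeR adjusted p = 7.07e-08), against -5.95 without UK replicate 5. CCNA2 overlaps EXOSC9 in the RefSeq annotation. CCNB2, a mitotic cyclin, averaged 0.224 ± 0.0354 CPM in UK and 10.8 ± 0.871 CPM in FB (SD, n = 5 each), a log2 fold change of -5.57 ± 0.16 (SE, edgeR adjusted p = 1.52e-08), against -5.60 without UK replicate 5. DTL, a substrate adaptor of the CUL4 ubiquitin ligase in S phase, averaged 0.341 ± 0.0606 CPM in UK and 15.8 ± 1.19 CPM in FB (SD, n = 5 each), a log2 fold change of -5.53 ± 0.16 (SE, edgeR adjusted p = 1.52e-08), against -5.60 without UK replicate 5. MCM4, another helicase subunit, averaged 9.19 ± 1.03 CPM in UK and 82.8 ± 5.31 CPM in FB (SD, n = 5 each), a log2 fold change of -3.17 ± 0.12 (SE, edgeR adjusted p = 7.07e-08), against -3.23 without UK replicate 5. BUB1, a spindle checkpoint kinase, averaged 0.168 ± 0.108 CPM in UK and 35 ± 2.73 CPM in FB (SD, n = 5 each), a log2 fold change of -7.57 ± 0.34 (SE, edgeR adjusted p = 1.39e-07), against -7.37 without UK replicate 5. KIF20A and KIF23 (kinesins of cytokinesis), DIAPH3 (a formin), SHCBP1 and CKAP2L (a spindle protein) were also among the 10 largest falls, with log2 fold changes from -8.93 to -6.77 and at most 9 counts each over the 5 UK libraries. UCP2, an inner mitochondrial membrane carrier, and CDCA7, a chromatin factor of cycling cells, completed the 10. UCP2 stood at 0.0504, 0.0451, 0.0475, 0.167 and 0.246 CPM in UK replicates 1 to 5, against 15.9, 17.4, 19.8, 16.2 and 17.6 CPM in FB replicates 1 to 5. All UK libraries were close to 0 and all FB libraries were above 10 CPM. UCP2 had a log2 fold change of -7.33 ± 0.33 (SE, edgeR adjusted p = 1.39e-07), and of -7.66 ± 0.21 without UK replicate 5 (adjusted p = 1.08e-15).

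Inhibitors of the cell cycle and genes of growth arrest were mixed, as 6 of 16 tested members were higher and 3 lower with all 10 libraries, and 9 higher and 7 lower without UK replicate 5. Shares over all genes were 20.6% higher and 19.8% lower (39.8% and 40.2% without UK replicate 5). CDKN1C, the inhibitor p57, went up most. CDKN1C stood at 3.73, 4.24, 4.08, 3.68 and 24 CPM in UK replicates 1 to 5, against 0.109, 0.0461, 0, 0.234 and 0.0504 CPM in FB replicates 1 to 5. UK replicate 5 was far above the other UK libraries, and FB libraries were close to 0. CDKN1C had a log2 fold change of 6.31 ± 0.89 (SE, edgeR adjusted p = 2.48e-04), and of 5.30 ± 0.31 without UK replicate 5 (adjusted p = 2.86e-11). CDKN1A, the inhibitor p21, behaved otherwise in that library. CDKN1A stood at 187, 266, 215, 209 and 44.7 CPM in UK replicates 1 to 5, against 56.3, 44.7, 72.4, 56 and 59.4 CPM in FB replicates 1 to 5. UK replicates 1 to 4 were above FB and UK replicate 5 was below the mean of FB. CDKN1A had a log2 fold change of 1.68 ± 0.38 (SE, edgeR adjusted p = 0.0052), and of 1.92 ± 0.11 without UK replicate 5 (adjusted p = 1.82e-11). CCNG1, cyclin G1, averaged 955 ± 288 CPM in UK and 326 ± 10.6 CPM in FB (SD, n = 5 each), a log2 fold change of 1.55 ± 0.23 (SE, edgeR adjusted p = 3.09e-04), against 1.72 without UK replicate 5. SESN1, a stress-inducible sestrin, averaged 8.27 ± 1.16 CPM in UK and 4.17 ± 0.45 CPM in FB (SD, n = 5 each), a log2 fold change of 0.99 ± 0.14 (SE, edgeR adjusted p = 2.70e-04), against 1.07 without UK replicate 5.

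The genes of the drug's target did not give 1 answer. MPC1 stood at 29.1, 29.9, 29.8, 29.2 and 67.8 CPM in UK replicates 1 to 5, against 30.1, 31.4, 31.4, 28.7 and 28.6 CPM in FB replicates 1 to 5. In UK replicates 1 to 4 the MPC1 level lay within the FB range, and UK replicate 5 was more than 2-fold above it. MPC1 had a log2 fold change of 0.31 ± 0.25 (SE, edgeR adjusted p = 0.36), and of -0.03 ± 0.059 without UK replicate 5 (adjusted p = 0.652). MPC2 stood at 43.6, 44.8, 42.1, 42.5 and 239 CPM in UK replicates 1 to 5, against 58.4, 60.9, 60.1, 56.1 and 57.9 CPM in FB replicates 1 to 5. MPC2 was below all FB libraries in UK replicates 1 to 4 and above all of them in UK replicate 5. MPC2 had a log2 fold change of 0.49 ± 0.50 (SE, edgeR adjusted p = 0.484), and of -0.44 ± 0.052 without UK replicate 5 (adjusted p = 3.78e-07). The sign turned for both when UK replicate 5 was left out, and MPC2 overlaps DCAF6 in the RefSeq annotation, so reads may be shared. Of all genes, 20.6% were higher and 19.8% lower (39.8% and 40.2% without UK replicate 5). Of 19 tested genes of pyruvate entry and use, MPC1 and MPC2 included, 4 were higher and 7 lower with all 10 libraries, and 5 higher and 11 lower without UK replicate 5. LDHA, the lactate dehydrogenase chain that turns pyruvate into lactate, fell the furthest of them. LDHA stood at 922, 810.0, 848, 869.7 and 1419.5 CPM in UK replicates 1 to 5, against 7052, 6797, 6976, 6535 and 6335 CPM in FB replicates 1 to 5. The highest UK library, replicate 5, was at 1419.5 CPM and the lowest FB library at 6335 CPM. LDHA had a log2 fold change of -2.79 ± 0.17 (SE, edgeR adjusted p = 9.52e-07), and of -2.97 ± 0.068 without UK replicate 5 (adjusted p = 1.08e-16).

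PC, pyruvate carboxylase, which makes oxaloacetate, averaged 48.6 ± 4.44 CPM in UK and 18.4 ± 1.59 CPM in FB (SD, n = 5 each), a log2 fold change of 1.40 ± 0.11 (SE, edgeR adjusted p = 4.85e-06), against 1.45 without UK replicate 5. PC stood at 51.6, 53, 48.6, 48 and 41.5 CPM in UK replicates 1 to 5, against 18.3, 17, 20.1, 16.7 and 19.9 CPM in FB replicates 1 to 5. Each UK library had more PC than any FB library, and PC overlaps RCE1 and LRFN4 in the RefSeq annotation. PDK1, a kinase that switches pyruvate dehydrogenase off, averaged 60.7 ± 6.6 CPM in UK and 173 ± 4.93 CPM in FB (SD, n = 5 each), a log2 fold change of -1.51 ± 0.10 (SE, edgeR adjusted p = 1.56e-06), against -1.46 without UK replicate 5. ME3, a mitochondrial malic enzyme that makes pyruvate from malate, averaged 57.9 ± 8.9 CPM in UK and 139 ± 9.29 CPM in FB (SD, n = 5 each), a log2 fold change of -1.26 ± 0.12 (SE, edgeR adjusted p = 1.70e-05), against -1.36 without UK replicate 5. LDHD, a mitochondrial dehydrogenase of D-lactate, averaged 5.42 ± 1.9 CPM in UK and 0.361 ± 0.105 CPM in FB (SD, n = 5 each), a log2 fold change of 3.89 ± 0.29 (SE, edgeR adjusted p = 3.38e-06), against 3.66 without UK replicate 5. DLAT, the acetyltransferase of the pyruvate dehydrogenase complex, fell by 1.12 on the log2 scale, and the alanine aminotransferases GPT and GPT2, which trade pyruvate for alanine, rose by 1.66 ± 0.54 and fell by 1.15 (-1.02, 0.82 and -0.99 without UK replicate 5). Glycolysis and lactate transport genes were mostly lower, as 3 of 16 tested members were higher and 9 lower with all 10 libraries, and 3 higher and 11 lower without UK replicate 5. Their median log2 fold change was -0.67 with all 10 libraries and -0.77 without UK replicate 5. The shares over all genes were 20.6% higher and 19.8% lower (39.8% and 40.2% without UK replicate 5). SLC16A3, the lactate exporter MCT4, averaged 28.4 ± 3.17 CPM in UK and 209 ± 25.5 CPM in FB (SD, n = 5 each), a log2 fold change of -2.88 ± 0.13 (SE, edgeR adjusted p = 1.35e-07), against -2.86 without UK replicate 5. SLC16A3 overlaps CSNK1D in the RefSeq annotation. ALDOA, the main aldolase, averaged 575 ± 119 CPM in UK and 1672 ± 120.3 CPM in FB (SD, n = 5 each), a log2 fold change of -1.54 ± 0.14 (SE, edgeR adjusted p = 1.50e-05), against -1.68 without UK replicate 5. TPI1, GAPDH and HK2, a hexokinase bound to mitochondria, fell by 2.15, 1.51 and 1.23 on the log2 scale (-2.75, -1.78 and -1.01 without UK replicate 5). ALDOC, a second aldolase, averaged 65.7 ± 8.97 CPM in UK and 24.9 ± 1.97 CPM in FB (SD, n = 5 each), a log2 fold change of 1.40 ± 0.12 (SE, edgeR adjusted p = 8.91e-06), against 1.31 without UK replicate 5.

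Calls among genes of the TCA cycle and of the nuclear-encoded respiratory chain depended on UK replicate 5, as did calls over all genes. Of all genes, 20.6% were higher and 19.8% lower with all 10 libraries, and 39.8% and 40.2% without UK replicate 5. Of TCA cycle genes, 0 of 17 tested members were higher and 4 lower with all 10 libraries, and 3 higher and 10 lower without UK replicate 5. IDH3A, a subunit of isocitrate dehydrogenase, averaged 55.7 ± 2.81 CPM in UK and 92.7 ± 4.0 CPM in FB (SD, n = 5 each), a log2 fold change of -0.73 ± 0.087 (SE, edgeR adjusted p = 7.38e-05), against -0.71 without UK replicate 5. SUCLG2, a subunit of succinyl-CoA ligase, averaged 31.2 ± 7.57 CPM in UK and 56.6 ± 1.5 CPM in FB (SD, n = 5 each), a log2 fold change of -0.86 ± 0.18 (SE, edgeR adjusted p = 0.00314), against -0.72 without UK replicate 5. DLST, a subunit of oxoglutarate dehydrogenase, averaged 52.2 ± 11.8 CPM in UK and 75.8 ± 1.71 CPM in FB (SD, n = 5 each), a log2 fold change of -0.54 ± 0.17 (SE, edgeR adjusted p = 0.0264), against -0.40 without UK replicate 5. That call was lost without FB replicate 1 or 3 (adjusted p = 0.0553 and 0.053). Of the respiratory chain and ATP synthase, 0 of 21 tested members were higher and 1 lower with all 10 libraries, and 1 higher and 17 lower without UK replicate 5. The median log2 fold change of that list was 0.072 with all 10 libraries and -0.45 without UK replicate 5, and its members lay a median 1.75 log2 units above the other UK libraries in UK replicate 5. ATP5F1B, the catalytic beta chain of ATP synthase, was the 1 member called with all 10. ATP5F1B stood at 506, 476, 451, 429.5 and 972 CPM in UK replicates 1 to 5, against 909.9, 912, 920.2, 863 and 894 CPM in FB replicates 1 to 5. UK replicates 1 to 4 lay below FB and UK replicate 5 lay among the FB libraries. ATP5F1B had a log2 fold change of -0.67 ± 0.22 (SE, edgeR adjusted p = 0.0333), and of -0.95 ± 0.057 without UK replicate 5 (adjusted p = 3.28e-11). Leaving out any 1 library other than UK replicate 5 took the adjusted p to between 0.0563 and 0.0769.

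Genes that the stress factor ATF4 drives, many of them enzymes that make amino acids and one-carbon units, were lower in UK. Of the list for ATF4 and the integrated stress response, 0 of 19 tested members were higher and 13 lower with all 10 libraries, and 1 higher and 18 lower without UK replicate 5, with a median log2 fold change of -1.44 with all 10 libraries and -1.54 without UK replicate 5. MTHFD2, a mitochondrial enzyme of folate metabolism, was the leading fall. MTHFD2 stood at 42.9, 47.9, 37.7, 33.7 and 45.6 CPM in UK replicates 1 to 5, against 339.6, 333, 328, 330.3 and 314 CPM in FB replicates 1 to 5. UK replicate 5 lay among the other UK libraries, far from FB. MTHFD2 had a log2 fold change of -2.98 ± 0.12 (SE, edgeR adjusted p = 7.78e-08), and of -3.02 ± 0.083 without UK replicate 5 (adjusted p = 9.67e-16). SHMT2, the serine hydroxymethyltransferase that feeds it, is on the same list. SHMT2 stood at 102, 119, 92, 79.9 and 147 CPM in UK replicates 1 to 5, against 827, 809, 816, 774 and 791 CPM in FB replicates 1 to 5. The highest UK library was below the lowest FB library, at 147 CPM against 774 CPM. SHMT2 had a log2 fold change of -2.89 ± 0.17 (SE, edgeR adjusted p = 5.56e-07), and of -3.03 ± 0.091 without UK replicate 5 (adjusted p = 2.95e-15). PHGDH, the entry enzyme of serine synthesis, averaged 27.9 ± 8.88 CPM in UK and 206 ± 11.7 CPM in FB (SD, n = 5 each), a log2 fold change of -2.88 ± 0.21 (SE, edgeR adjusted p = 2.33e-06), against -3.09 without UK replicate 5. ASNS, asparagine synthetase, averaged 160.4 ± 48.1 CPM in UK and 692 ± 17.4 CPM in FB (SD, n = 5 each), a log2 fold change of -2.11 ± 0.19 (SE, edgeR adjusted p = 1.10e-05), against -2.30 without UK replicate 5. WARS1, the tryptophan tRNA ligase, averaged 184 ± 17.9 CPM in UK and 1315 ± 50.2 CPM in FB (SD, n = 5 each), a log2 fold change of -2.83 ± 0.10 (SE, edgeR adjusted p = 7.07e-08), against -2.83 without UK replicate 5. TRIB3, a pseudokinase induced by ATF4, averaged 16.6 ± 10.7 CPM in UK and 98.2 ± 6.31 CPM in FB (SD, n = 5 each), a log2 fold change of -2.57 ± 0.35 (SE, edgeR adjusted p = 2.11e-04), against -3.03 without UK replicate 5. WARS1 overlaps WDR25 in the RefSeq annotation. ATF4 itself and DDIT3 (CHOP) were called lower without UK replicate 5 but not with all 10 libraries, and DDIT3 overlaps MARS1.

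Of genes for glutamine and amino acid metabolism, 5 of 22 tested members were higher and 8 lower with all 10 libraries, and 5 higher and 17 lower without UK replicate 5. SLC1A5, the glutamine importer ASCT2, averaged 58.8 ± 22 CPM in UK and 264 ± 18.2 CPM in FB (SD, n = 5 each), a log2 fold change of -2.17 ± 0.22 (SE, edgeR adjusted p = 2.28e-05), against -2.43 without UK replicate 5. BCAT1, the cytosolic branched-chain aminotransferase, averaged 15.5 ± 3.56 CPM in UK and 77.5 ± 4.12 CPM in FB (SD, n = 5 each), a log2 fold change of -2.32 ± 0.18 (SE, edgeR adjusted p = 3.51e-06), against -2.19 without UK replicate 5. SLC7A5, the LAT1 transporter of large amino acids, fell by 3.15 on the log2 scale (-2.88 without UK replicate 5). ASS1, argininosuccinate synthetase, averaged 20.4 ± 3.38 CPM in UK and 1.59 ± 0.302 CPM in FB (SD, n = 5 each), a log2 fold change of 3.68 ± 0.18 (SE, edgeR adjusted p = 2.15e-07), against 3.63 without UK replicate 5. GLUL, which makes glutamine, rose by 1.70 ± 0.13 on the log2 scale (1.58 without UK replicate 5). Of the unfolded protein response, 2 of 21 tested members were higher and 7 lower with all 10 libraries, and 3 higher and 14 lower without UK replicate 5. Shares over all genes were 20.6% higher and 19.8% lower (39.8% and 40.2% without UK replicate 5). HYOU1, a chaperone of the endoplasmic reticulum, averaged 228 ± 21 CPM in UK and 429 ± 15.1 CPM in FB (SD, n = 5 each), a log2 fold change of -0.92 ± 0.093 (SE, edgeR adjusted p = 2.51e-05), against -0.98 without UK replicate 5. CALR, calreticulin, averaged 805 ± 192 CPM in UK and 1526 ± 23.4 CPM in FB (SD, n = 5 each), a log2 fold change of -0.92 ± 0.15 (SE, edgeR adjusted p = 7.01e-04), against -1.08 without UK replicate 5. HSPA5, the chaperone BiP, fell by 1.67 on the log2 scale (-2.10 without UK replicate 5), and it overlaps RABEPK in the RefSeq annotation. DNAJC3, a co-chaperone that inhibits PERK, averaged 273 ± 16.9 CPM in UK and 176 ± 7.3 CPM in FB (SD, n = 5 each), a log2 fold change of 0.63 ± 0.085 (SE, edgeR adjusted p = 1.92e-04), against 0.65 without UK replicate 5.

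Genes of lipid synthesis were mostly higher in UK than in FB. INSIG1, SC5D, TM7SF2, FASN, FADS2 and ACLY were also above FB in the TGFb1 libraries of day 2, before UK-5099. With CPM scaled over 25 libraries, FADS2 averaged 39.6 CPM in FB, 261 CPM at day 2 and 236 CPM in UK. FASN averaged 268, 948 and 1221 CPM, and TM7SF2 61.2, 383 and 221 CPM, in the same order. The day 2 libraries were not tested here. Of cholesterol synthesis and uptake, 12 of 19 tested members were higher and 0 lower with all 10 libraries, and 14 higher and 1 lower without UK replicate 5, with a median log2 fold change of 0.66 with all 10 libraries and 0.53 without UK replicate 5. INSIG1, a sterol sensor that holds SREBP factors back and is itself an SREBP target, rose most. INSIG1 stood at 290.5, 361, 335, 321 and 882 CPM in UK replicates 1 to 5, against 57.8, 62.3, 69.1, 67 and 72.3 CPM in FB replicates 1 to 5. UK replicate 5 was the highest library, and the lowest UK library was above all of FB. INSIG1 had a log2 fold change of 2.74 ± 0.31 (SE, edgeR adjusted p = 6.01e-05), and of 2.31 ± 0.072 without UK replicate 5 (adjusted p = 4.47e-15). SC5D, a desaturase late in the pathway, averaged 68.4 ± 3.83 CPM in UK and 34.9 ± 2.78 CPM in FB (SD, n = 5 each), a log2 fold change of 0.97 ± 0.10 (SE, edgeR adjusted p = 2.67e-05), against 1.00 without UK replicate 5. TM7SF2, a sterol reductase, averaged 202 ± 67 CPM in UK and 55.9 ± 4.81 CPM in FB (SD, n = 5 each), a log2 fold change of 1.85 ± 0.20 (SE, edgeR adjusted p = 3.98e-05), against 1.62 without UK replicate 5. HMGCS1, FDFT1, SQLE and DHCR7, enzymes from the start to the end of the pathway, rose by between 0.61 and 1.03 on the log2 scale (between 0.36 and 1.16 without UK replicate 5). Of fatty acid synthesis, 9 of 18 tested members were higher and 4 lower with all 10 libraries, and 11 higher and 5 lower without UK replicate 5. FASN, fatty acid synthase, spread widely within UK. FASN stood at 1125, 1108, 1335, 1620.1 and 434 CPM in UK replicates 1 to 5, against 227, 194, 280.4, 234 and 287 CPM in FB replicates 1 to 5. The lowest UK level, in replicate 5, was above the highest FB level. FASN had a log2 fold change of 2.20 ± 0.30 (SE, edgeR adjusted p = 2.09e-04), and of 2.40 ± 0.12 without UK replicate 5 (adjusted p = 1.81e-12). FADS2, the delta-6 desaturase, averaged 217 ± 69.8 CPM in UK and 36.2 ± 3.95 CPM in FB (SD, n = 5 each), a log2 fold change of 2.58 ± 0.26 (SE, edgeR adjusted p = 2.28e-05), against 2.77 without UK replicate 5. ACLY, ATP citrate lyase, which makes cytosolic acetyl-CoA, averaged 794 ± 136 CPM in UK and 482 ± 20.6 CPM in FB (SD, n = 5 each), a log2 fold change of 0.72 ± 0.13 (SE, edgeR adjusted p = 0.00146), against 0.82 without UK replicate 5. ACACA, SCD and SREBF1 rose by 1.52 ± 0.40, 1.20 ± 0.41 and 1.09 ± 0.24 on the log2 scale, and DGAT2, an enzyme of triglyceride synthesis, fell by 2.37 (1.78, 1.47, 1.27 and -2.29 without UK replicate 5).

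Of fatty acid oxidation genes, 3 of 19 tested members were higher and 3 lower with all 10 libraries, and 5 higher and 10 lower without UK replicate 5, against 20.6% higher and 19.8% lower over all genes with all 10 libraries and 39.8% and 40.2% without UK replicate 5. CPT2, the inner carnitine palmitoyltransferase, averaged 31.9 ± 1.46 CPM in UK and 59.96 ± 2.66 CPM in FB (SD, n = 5 each), a log2 fold change of -0.91 ± 0.090 (SE, edgeR adjusted p = 2.07e-05), against -0.91 without UK replicate 5. SLC25A20, the carnitine-acylcarnitine carrier, averaged 28.9 ± 6.41 CPM in UK and 17.1 ± 0.982 CPM in FB (SD, n = 5 each), a log2 fold change of 0.76 ± 0.17 (SE, edgeR adjusted p = 0.00435), against 0.88 without UK replicate 5. ACADL, an acyl-CoA dehydrogenase, averaged 23.1 ± 8.46 CPM in UK and 15.2 ± 1.24 CPM in FB (SD, n = 5 each), a log2 fold change of 0.60 ± 0.21 (SE, edgeR adjusted p = 0.044), against 0.34 without UK replicate 5. The ACADL call was lost under 9 alternatives, with adjusted p between 0.0512 and 0.104. Among genes that answer to PPAR-gamma or coat lipid droplets, 6 of 8 tested members were higher and 0 lower with all 10 libraries, and 6 higher and 2 lower of 9 without UK replicate 5. The PPARG transcript itself had 0 counts in UK and 3 in FB, so no fold is given. ANGPTL4, a secreted inhibitor of lipoprotein lipase, rose. ANGPTL4 stood at 56.4, 37.2, 51.4, 49.3 and 75.8 CPM in UK replicates 1 to 5, against 2.08, 1.48, 2.47, 1.91 and 2.42 CPM in FB replicates 1 to 5. All UK libraries were above all FB libraries. ANGPTL4 had a log2 fold change of 4.70 ± 0.24 (SE, edgeR adjusted p = 2.26e-07), and of 4.55 ± 0.14 without UK replicate 5 (adjusted p = 3.15e-15). LPL, lipoprotein lipase, averaged 88.9 ± 12.3 CPM in UK and 14.8 ± 1.14 CPM in FB (SD, n = 5 each), a log2 fold change of 2.59 ± 0.13 (SE, edgeR adjusted p = 2.26e-07), against 2.65 without UK replicate 5. PLIN4, a perilipin, held 306 counts in UK and 2 in FB, a level 164 times as high in UK (95% counting interval 45.1 to 1362). PLIN4 overlaps HDGFL2 in the RefSeq annotation.

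The remaining genes with the largest rises were secreted factors, surface enzymes and sorting proteins. FGF7, keratinocyte growth factor, is a stromal signal to the epithelium. FGF7 stood at 17.7, 8.61, 15.4, 12.5 and 24.1 CPM in UK replicates 1 to 5, against 0.164, 0.138, 0, 0 and 0 CPM in FB replicates 1 to 5. Every UK library was far above the FB libraries, which held 6 counts in all. FGF7 had a log2 fold change of 7.96 ± 0.62 (SE, edgeR adjusted p = 4.34e-06), and of 7.76 ± 0.38 without UK replicate 5 (adjusted p = 2.43e-12). FGF7 overlaps FAM227B in the RefSeq annotation. CD38 and its relative BST1 encode surface enzymes that use NAD, and both rose. CD38 stood at 25.6, 17.7, 22.2, 18 and 57.9 CPM in UK replicates 1 to 5, against 0.219, 0.231, 0.19, 0.195 and 0.151 CPM in FB replicates 1 to 5. BST1 stood at 145, 112, 119.5, 117 and 217 CPM in UK replicates 1 to 5, against 3.72, 3.41, 3.18, 2.92 and 3.02 CPM in FB replicates 1 to 5. In both, UK replicate 5 was the highest library and FB stayed below every UK library. CD38 had a log2 fold change of 7.12 ± 0.45 (SE, edgeR adjusted p = 1.03e-06), and of 6.68 ± 0.19 without UK replicate 5 (adjusted p = 1.67e-15). BST1 had a log2 fold change of 5.45 ± 0.23 (SE, edgeR adjusted p = 9.35e-08), and of 5.25 ± 0.093 without UK replicate 5 (adjusted p = 7.20e-18). SORT1, sortilin, a sorting receptor, and KIF1A, a kinesin of vesicle transport, rose in all UK libraries but least in replicate 5. SORT1 stood at 34.8, 34.1, 35.2, 33.4 and 4.51 CPM in UK replicates 1 to 5, against 0.219, 0.277, 0.522, 0.39 and 0.302 CPM in FB replicates 1 to 5. KIF1A stood at 47.9, 72.9, 66, 58 and 7.7 CPM in UK replicates 1 to 5, against 1.09, 0.60, 0.807, 0.74 and 0.705 CPM in FB replicates 1 to 5. The highest FB library was at 0.522 CPM for SORT1 and 1.09 CPM for KIF1A. SORT1 had a log2 fold change of 6.34 ± 0.59 (SE, edgeR adjusted p = 1.44e-05), and of 6.6 ± 0.13 without UK replicate 5 (adjusted p = 1.60e-17). KIF1A had a log2 fold change of 6.0 ± 0.58 (SE, edgeR adjusted p = 1.84e-05), and of 6.28 ± 0.15 without UK replicate 5 (adjusted p = 2.27e-16).

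ITGBL1, a secreted protein with integrin-like repeats, averaged 37.8 ± 14.7 CPM in UK and 0.417 ± 0.152 CPM in FB (SD, n = 5 each), a log2 fold change of 6.47 ± 0.45 (SE, edgeR adjusted p = 1.82e-06), against 6.67 without UK replicate 5. ECRG4, which encodes the secreted peptide precursor augurin, averaged 362 ± 281 CPM in UK and 8.16 ± 0.773 CPM in FB (SD, n = 5 each), a log2 fold change of 5.47 ± 0.46 (SE, edgeR adjusted p = 7.23e-06), against 4.85 without UK replicate 5. ABCB1, the drug efflux pump P-glycoprotein, had one of the smallest p-values. ABCB1 stood at 760.1, 874, 834, 764 and 683 CPM in UK replicates 1 to 5, against 106, 113, 99.9, 118 and 111 CPM in FB replicates 1 to 5. Levels were close together within each group and did not overlap. ABCB1 had a log2 fold change of 2.84 ± 0.11 (SE, edgeR adjusted p = 7.07e-08), and of 2.88 ± 0.063 without UK replicate 5 (adjusted p = 5.85e-17). ABCB1 overlaps RUNDC3B in the RefSeq annotation. Of falls with small p-values, GPRC5A encodes an orphan receptor induced by retinoic acid. GPRC5A stood at 12.5, 16.2, 13.8, 13.8 and 13.4 CPM in UK replicates 1 to 5, against 264, 252, 264, 252 and 265 CPM in FB replicates 1 to 5. The highest UK library had 16.2 CPM and the lowest FB library 252 CPM. GPRC5A had a log2 fold change of -4.22 ± 0.11 (SE, edgeR adjusted p = 9.86e-09), and of -4.21 ± 0.072 without UK replicate 5 (adjusted p = 5.06e-18). TNFRSF11B, osteoprotegerin, a decoy receptor for RANKL, averaged 7.88 ± 0.645 CPM in UK and 70.3 ± 3.52 CPM in FB (SD, n = 5 each), a log2 fold change of -3.16 ± 0.11 (SE, edgeR adjusted p = 6.20e-08), against -3.12 without UK replicate 5. ARSJ, an arylsulfatase, averaged 6.77 ± 0.693 CPM in UK and 67.9 ± 3.74 CPM in FB (SD, n = 5 each), a log2 fold change of -3.33 ± 0.12 (SE, edgeR adjusted p = 6.77e-08), against -3.34 without UK replicate 5.

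Lysosome and autophagy genes were higher, as 15 of 19 tested members were higher and 0 lower with all 10 libraries, and 17 higher and 2 lower without UK replicate 5, with a median log2 fold change of 1.11 with all 10 libraries and 0.95 without UK replicate 5. CTSK, cathepsin K, a protease that degrades collagen, went up most among the abundant members. CTSK stood at 1031, 1283, 1027, 1097 and 2586 CPM in UK replicates 1 to 5, against 82.2, 87.3, 79.3, 78.9 and 73.6 CPM in FB replicates 1 to 5. UK replicate 5 was more than 2-fold above the other UK libraries, which were all above FB. CTSK had a log2 fold change of 4.13 ± 0.29 (SE, edgeR adjusted p = 2.00e-06), and of 3.79 ± 0.074 without UK replicate 5 (adjusted p = 1.66e-17). CTSD, cathepsin D, averaged 1366 ± 358 CPM in UK and 395 ± 34.9 CPM in FB (SD, n = 5 each), a log2 fold change of 1.79 ± 0.17 (SE, edgeR adjusted p = 1.81e-05), against 1.62 without UK replicate 5. NPC2, a lysosomal cholesterol carrier, averaged 544 ± 384 CPM in UK and 141 ± 5.75 CPM in FB (SD, n = 5 each), a log2 fold change of 1.95 ± 0.36 (SE, edgeR adjusted p = 0.00147), against 1.40 without UK replicate 5. MCOLN1, a lysosomal calcium channel, averaged 67.5 ± 20.7 CPM in UK and 15.2 ± 0.891 CPM in FB (SD, n = 5 each), a log2 fold change of 2.15 ± 0.19 (SE, edgeR adjusted p = 9.34e-06), against 1.93 without UK replicate 5. ATP6V0D2, a subunit of the proton pump, held 328 counts in UK and 1 in FB, a level 352 times as high in UK (95% counting interval 62.8 to 13949). Of markers of immune cells, which are rich in lysosomes, 9 of 10 were in the files and 4 were tested, 3 of them higher. Their summed level was 26.9 to 32.2 CPM in UK replicates 1 to 4, 52 CPM in UK replicate 5 and 12.5 to 15.7 CPM in FB. CSF1R, the receptor of macrophage colony-stimulating factor, averaged 5.8 CPM in UK and 0.288 CPM in FB, and CD68 18.5 CPM in UK and 9.84 CPM in FB, while PTPRC, AIF1 and CD3D were at 0. CTSK overlaps ARNT in the RefSeq annotation.

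Targets of the aryl hydrocarbon receptor, a sensor of aromatic compounds, were higher in part, as 3 of 6 tested members were higher and 0 lower with all 10 libraries, and 5 higher and 0 lower without UK replicate 5. ALDH3A1, given above with the keratocyte genes, was among these 3. CYP1A1, its best known target, encodes a monooxygenase. CYP1A1 stood at 109.9, 175, 135, 104 and 157 CPM in UK replicates 1 to 5, against 5.53, 7.8, 8.26, 6.7 and 6.65 CPM in FB replicates 1 to 5. Replicate 5 lay within the spread of the other UK libraries. CYP1A1 had a log2 fold change of 4.28 ± 0.20 (SE, edgeR adjusted p = 1.57e-07), and of 4.22 ± 0.14 without UK replicate 5 (adjusted p = 1.33e-14). CYP1B1, a related enzyme, was split by that library. CYP1B1 stood at 363, 417, 388, 460.1 and 56 CPM in UK replicates 1 to 5, against 60.9, 65.1, 65.5, 77 and 73.2 CPM in FB replicates 1 to 5. UK replicate 5 lay below every FB library and the rest of UK far above. CYP1B1 had a log2 fold change of 2.30 ± 0.44 (SE, edgeR adjusted p = 0.00195), and of 2.57 ± 0.077 without UK replicate 5 (adjusted p = 2.94e-15). Of the insulin-like growth factor axis, 9 of 15 tested members were higher and 0 lower with all 10 libraries, and 11 higher and 2 lower without UK replicate 5, with a median log2 fold change of 1.72 with all 10 libraries and 1.34 without UK replicate 5. IGF2, a growth factor, averaged 26.7 ± 6.18 CPM in UK and 0.777 ± 0.309 CPM in FB (SD, n = 5 each), a log2 fold change of 5.09 ± 0.31 (SE, edgeR adjusted p = 8.57e-07), against 5.19 without UK replicate 5. IGFBP4, a binding protein that holds such factors, averaged 1699.9 ± 728 CPM in UK and 271 ± 18.5 CPM in FB (SD, n = 5 each), a log2 fold change of 2.65 ± 0.25 (SE, edgeR adjusted p = 1.54e-05), against 2.34 without UK replicate 5. GHR, the growth hormone receptor, averaged 32 ± 8.52 CPM in UK and 8.0 ± 0.588 CPM in FB (SD, n = 5 each), a log2 fold change of 2.00 ± 0.21 (SE, edgeR adjusted p = 2.98e-05), against 2.15 without UK replicate 5. IRS2, a substrate of the insulin receptor, averaged 40.5 ± 17.1 CPM in UK and 7.1 ± 0.678 CPM in FB (SD, n = 5 each), a log2 fold change of 2.51 ± 0.34 (SE, edgeR adjusted p = 1.85e-04), against 2.74 without UK replicate 5. Of Wnt ligands, receptors and inhibitors, 7 of 17 tested members were higher and 0 lower with all 10 libraries, and 12 higher and 3 lower of 18 without UK replicate 5. FZD6, a frizzled receptor, averaged 125 ± 18.8 CPM in UK and 48.4 ± 2.74 CPM in FB (SD, n = 5 each), a log2 fold change of 1.37 ± 0.13 (SE, edgeR adjusted p = 1.31e-05), against 1.46 without UK replicate 5. LRP5, a Wnt co-receptor, averaged 133 ± 23.6 CPM in UK and 62.4 ± 7.45 CPM in FB (SD, n = 5 each), a log2 fold change of 1.09 ± 0.15 (SE, edgeR adjusted p = 1.82e-04), against 1.17 without UK replicate 5.

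Of NRF2 and glutathione genes, 7 of 12 tested members were higher and 1 lower with all 10 libraries, and 7 higher and 3 lower without UK replicate 5. SOD2, the mitochondrial superoxide dismutase, averaged 217 ± 79.96 CPM in UK and 24.9 ± 1.4 CPM in FB (SD, n = 5 each), a log2 fold change of 3.12 ± 0.30 (SE, edgeR adjusted p = 1.89e-05), against 3.33 without UK replicate 5. GCLM, the modifier subunit of glutathione synthesis, averaged 36.8 ± 2.54 CPM in UK and 92.2 ± 3.75 CPM in FB (SD, n = 5 each), a log2 fold change of -1.32 ± 0.093 (SE, edgeR adjusted p = 2.00e-06), against -1.34 without UK replicate 5. Of hypoxia-responsive genes, 3 of 17 tested members were higher and 8 lower with all 10 libraries, and 4 higher and 12 lower without UK replicate 5. HIF1A, the oxygen-regulated factor itself, averaged 1918 ± 291 CPM in UK and 682 ± 29.7 CPM in FB (SD, n = 5 each), a log2 fold change of 1.49 ± 0.13 (SE, edgeR adjusted p = 6.85e-06), against 1.57 without UK replicate 5. VEGFA, a target of it and the main angiogenic factor, fell by 1.65 on the log2 scale, and SLC2A1, a glucose importer, by 0.83 (-1.40 and -0.70 without UK replicate 5). Of immediate early genes, 2 of 18 tested members were higher and 8 lower with all 10 libraries, and 3 higher and 9 lower of 19 without UK replicate 5. KLF2, a zinc finger factor, averaged 0.486 ± 0.202 CPM in UK and 8.33 ± 2.46 CPM in FB (SD, n = 5 each), a log2 fold change of -4.07 ± 0.33 (SE, edgeR adjusted p = 5.20e-06), against -4.06 without UK replicate 5. ATF3, a stress-induced factor, averaged 6.97 ± 0.345 CPM in UK and 20.6 ± 1.62 CPM in FB (SD, n = 5 each), a log2 fold change of -1.56 ± 0.10 (SE, edgeR adjusted p = 1.54e-06), against -1.55 without UK replicate 5. MYC fell by 2.7 on the log2 scale (-3.12 without UK replicate 5). Of interferon-responsive genes, 3 of 12 tested members were higher and 3 lower with all 10 libraries, and 4 higher and 4 lower without UK replicate 5. Of inflammatory mediators, 3 of 12 tested members were higher and 1 lower with all 10 libraries, and 5 higher and 4 lower without UK replicate 5. Both stand beside 20.6% higher and 19.8% lower over all genes with all 10 libraries, and 39.8% and 40.2% without UK replicate 5. CSF1, macrophage colony-stimulating factor, averaged 229 ± 11.1 CPM in UK and 109 ± 4.69 CPM in FB (SD, n = 5 each), a log2 fold change of 1.08 ± 0.084 (SE, edgeR adjusted p = 4.07e-06), against 1.05 without UK replicate 5. PTGS1, cyclooxygenase 1, averaged 1100.3 ± 95.9 CPM in UK and 687 ± 19.9 CPM in FB (SD, n = 5 each), a log2 fold change of 0.68 ± 0.094 (SE, edgeR adjusted p = 2.25e-04), against 0.72 without UK replicate 5. PTGS2, cyclooxygenase 2, was called higher by 0.92 ± 0.29 (1.11 without UK replicate 5), but UK replicate 5 at 3.11 CPM overlapped FB and the call was lost under 9 alternatives, with adjusted p between 0.0526 and 0.0937. The lists share some genes, such as ASNS, PDK1, CCN2 and ALDH3A1.

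**Figure D4:**
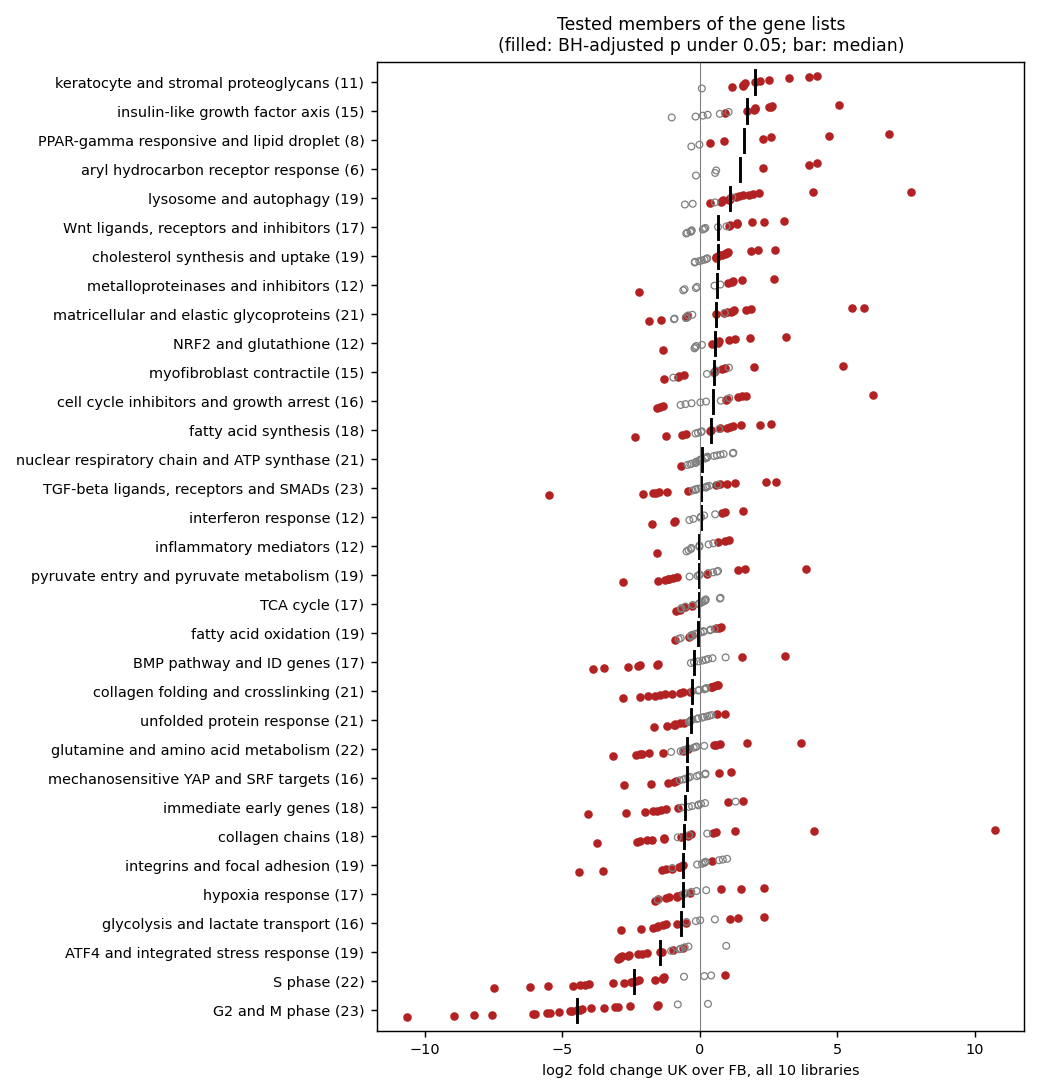
Log2 fold change of UK over FB with all 10 libraries (horizontal axis) for every tested member of the 33 gene lists, ordered by median with the highest on top and the number of tested members in brackets. Filled dots are called genes, open dots are not, and black bars are medians, which run from 2.02 for keratocyte and stromal proteoglycans to -4.47 for G2 and M phase genes.

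To see which of these differences set the UK-5099 cells apart from the other drug-treated cells of day 5, the UK libraries were tested against both of those groups in a fit of all 25 libraries. That fit estimates the spread of a gene over all groups together, so its standard errors and p-values do not measure the spread within UK alone. Trog cells had the same TGFb1 exposure and then 7.5 uM troglitazone, a PPAR-gamma ligand, and TrogGW cells had both 7.5 uM troglitazone and 10 uM GW9662, which blocks PPAR-gamma, for the same 3 days. CPM in this paragraph and the next are scaled over 25 libraries and so differ slightly from those above. The 34 genes looked at were ACTA2, MPC1, MPC2, PPARG and those named for the largest rises and falls or the smallest p-values. PPARG had too few counts to be tested. Of the 34 genes, 24 differed between UK and Trog, 13 higher in UK and 11 lower. In that comparison 61.1% of genes were called, 32.9% higher and 28.2% lower. Against TrogGW the number was 26, with 12 higher and 14 lower, where 68% of genes were called, 32.9% higher and 35.1% lower. Without UK replicate 5 the numbers were 24 and 27, where 75.1% and 81.5% of genes were called. ACTA2 averaged 3408 ± 1464 CPM in UK, 269.9 ± 73.6 CPM in Trog and 9.38 ± 11.5 CPM in TrogGW (SD, n = 5 each). The log2 difference of UK from Trog was 3.66 ± 0.51 (SE, edgeR adjusted p = 1.38e-06) and 3.36 without UK replicate 5, and from TrogGW it was 8.51 ± 0.64 (SE, edgeR adjusted p = 3.62e-11) and 8.21. COL11A1 averaged 203 ± 65.6 CPM in UK, 2.15 ± 0.991 CPM in Trog and 0.531 ± 0.252 CPM in TrogGW. Its log2 difference was 6.56 ± 0.33 (SE, edgeR adjusted p = 6.20e-14) from Trog and 8.58 ± 0.37 (SE, edgeR adjusted p = 2.16e-15) from TrogGW.

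FGF7 averaged 17.1 ± 6.59 CPM in UK, 1.5 ± 0.463 CPM in Trog and 0.132 ± 0.0802 CPM in TrogGW, with a log2 difference of 3.49 ± 0.30 (SE, edgeR adjusted p = 5.49e-10) from Trog and 6.97 ± 0.40 (SE, edgeR adjusted p = 3.25e-13) from TrogGW. CD38, ITGBL1, SORT1, ECRG4 and BST1 were higher in UK than in both other groups, and COMP was too. All of them were already above FB in the TGFb1 libraries of day 2, which were not tested here. COMP was higher there than in UK, at 19.4 ± 1.54 against 12.9 ± 4.86 CPM (SD), and the others were lower there than in UK. CD38 averaged 0.216 CPM in FB, 11.2 CPM at day 2 and 31.1 CPM in UK. KIF1A was lower in UK than in Trog and TrogGW. It averaged 54.8 ± 27.7 CPM in UK, 151 ± 9.9 CPM in Trog and 130.2 ± 11.5 CPM in TrogGW, a log2 difference of -1.46 ± 0.30 (SE, edgeR adjusted p = 2.04e-04) from Trog and -1.24 ± 0.30 (SE, edgeR adjusted p = 8.07e-04) from TrogGW. ABCB1 averaged 853 ± 73.6 CPM in UK, 898 ± 63.3 CPM in Trog and 888 ± 129.8 CPM in TrogGW, and neither difference passed the test, at -0.073 ± 0.093 (SE, edgeR adjusted p = 0.51) and -0.057 ± 0.093 (SE, edgeR adjusted p = 0.596). WARS1 and GPRC5A were lower in UK than in both, with WARS1 at 201 ± 19.8 CPM in UK, 1235 ± 45.7 CPM in Trog and 739 ± 104 CPM in TrogGW. The log2 difference of WARS1 from Trog was -2.62 ± 0.094 (SE, edgeR adjusted p = 3.23e-16) and from TrogGW -1.88 ± 0.092 (SE, edgeR adjusted p = 1.55e-14). Of the cell cycle genes named above, BUB1, RRM2, MCM5 and DTL were lower in UK than in both other groups. The low level against FB was shared, as each of these genes was also far below FB in Trog, TrogGW and the TGFb1 libraries of day 2. MCM5 averaged 66.1 CPM in FB, 4.46 CPM in the TGFb1 libraries, 2.49 CPM in Trog, 4.10 CPM in TrogGW and 0.911 CPM in UK. RRM2 averaged 0.485 ± 0.254 CPM in UK, 1.22 ± 0.205 CPM in Trog and 4.95 ± 0.957 CPM in TrogGW, a log2 difference of -1.38 ± 0.26 (SE, edgeR adjusted p = 6.53e-05) from Trog and -3.39 ± 0.23 (SE, edgeR adjusted p = 7.17e-12) from TrogGW. CCNB2 was higher in UK than in Trog, with a log2 difference of 1.25 ± 0.48 (SE, edgeR adjusted p = 0.0278), and was not called against TrogGW. KIF20A was called higher in UK than in Trog, on 4 counts in UK and 0 in Trog, and lower than in TrogGW. CDC20, KIF23, CKAP2L and MCM4 were called lower than in TrogGW and were not called against Trog. CDCA7 was lower than in Trog at an adjusted p of 0.0479 by edgeR, which was 0.084 without UK replicate 5, and was not called against TrogGW. CCNA2, DIAPH3 and SHCBP1 passed the test against neither group. Apart from CDCA7, the calls named in these 2 paragraphs also held without UK replicate 5.

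**Figure D5:**
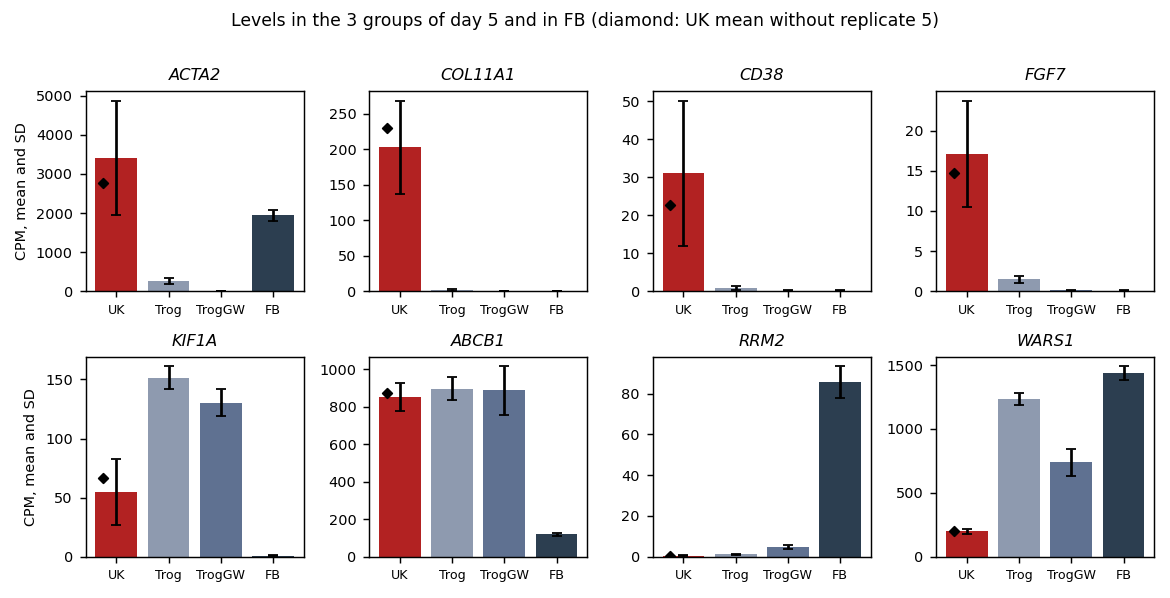
Mean level (bars, CPM) with SD (whiskers, cut off at 0, n = 5) of 8 genes in UK, Trog, TrogGW and FB, with the UK mean without replicate 5 as a black diamond. Among the groups shown, ACTA2, COL11A1, CD38 and FGF7 are highest in UK, KIF1A is highest in Trog and TrogGW, and RRM2 and WARS1 are highest in FB. ABCB1 averages 853, 898 and 888 CPM in UK, Trog and TrogGW. The TGFb1 libraries of day 2 are not shown. ACTA2 averaged 9003 ± 427 CPM and WARS1 1587.5 ± 136 CPM in them, above every group shown.

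Markers of other cells of the cornea gave little signal for most types, and their part in the results was not tested. Of 10 epithelial markers 6 were in the files and only EPCAM was tested, with a log2 fold change of -2.82 ± 0.45 (-3.50 without UK replicate 5) at 1.26 CPM in UK and 8.44 CPM in FB. All 10 corneal endothelial markers were tested, 3 higher and 2 lower (3 and 4 without UK replicate 5), and their sum was 2715 to 3512 CPM in UK replicates 1 to 4, 1370.0 CPM in UK replicate 5 and 2594 to 2861 CPM in FB. These include genes that fibroblasts also hold, such as CDH2 and TJP1. Vascular endothelial markers summed to 140 to 171 CPM in UK replicates 1 to 4, 34.7 CPM in UK replicate 5 and 61.3 to 70.6 CPM in FB, most of it from ERG, with CLDN5 at 0. Markers of melanocytes and Schwann cells summed to 16.2 to 21.2 CPM in UK replicates 1 to 4, 2.79 CPM in UK replicate 5 and 5.03 to 7.75 CPM in FB, with TYR, TYRP1 and DCT at 0. Pericyte and smooth muscle markers summed to 401 to 504 CPM in UK replicates 1 to 4, 119 CPM in UK replicate 5 and 328 to 379 CPM in FB.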

How the data were processed

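Per the labels' protocols, 200 ng of total RNA went into stranded TruSeq libraries of polyadenylated RNA. Tools named in the submitters' processing notes are STAR 2.7.9a, Salmon 1.5.2, featureCounts, Subread 2.0.1 and fastp 0.23.1, with no role given. Genome build, annotation and strand setting are not given in the sources used here, so reads of overlapping genes cannot be told apart. The authors deposited 1 table of raw read counts per sample with 13949 gene symbols, of which 13794 were found in RefSeq's cat gene table (assembly F.catus_Fca126_mat1.0, used for names, overlaps and spans). Symbols of noncoding RNA families held 0.0189% of a library or less.

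The counts of the 5 UK and 5 FB libraries were fitted in R 4.3.3 with edgeR 4.0.16 (filterByExpr with minimum count 10 and minimum total 15, TMM scaling, quasi-likelihood F test, Benjamini-Hochberg adjustment over 9981 genes, call at an adjusted p under 0.05). Standard errors were taken as the size of the log2 fold change divided by the root of F. Depth was 14.8 to 25.2 M counts, and intervals for genes with 1 to 3 counts in a group cover counting error only. No pair of libraries agreed within sampling noise (chi-square per degree of freedom at least 3.70). UK against Trog and TrogGW was tested in a fit of all 25 libraries. Simulated counts with known changes served to test the code.

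The comparison, the gene lists and the rules were chosen with earlier results of these data known. The rule for named genes takes ACTA2, MPC1, MPC2 and PPARG, the 10 largest rises and 10 largest falls whose groups did not overlap and whose higher group averaged 10 CPM or more, the 10 smallest p-values, up to 3 called genes of a list in its direction and 1 against it, and for UK replicate 5 the 8 genes furthest above and below the other UK libraries. Genes named beyond it, such as COL1A1, COL1A2, COL8A1, FN1, POSTN, THBS1, CCN2, PC, PHGDH, TRIB3, ID1, CDKN1A, IRS2, SMAD3, CTSD, NPC2, CD68, CSF1R and list members given only with a fold change, were chosen after their values were seen. Alternatives were DESeq2 1.42.0, limma 3.58.1 voom with quality weights, other scaling, other filters, all 25 libraries, a block for replicate number, and each library left out. Some list members and named genes are not reported here. Plots used matplotlib 3.10.9.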

Additional observations from a re-analysis of the deposited data

Results flagged for a closer look

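Within a group of 5 libraries, a library was picked out when its gap to the nearest other one took more than 0.710 of the group's range, which chance does in about 1 of 20 groups. The share of counts in the 10 highest genes was 16.2% in UK replicate 5, apart from the other UK libraries, and 14.3% in FB replicate 2, apart from the other FB libraries. Of 165 named genes, UK replicate 5 lay apart from the other UK libraries in 56, UK replicate 2 in 1 and UK replicate 4 in 1. In FB the numbers were 2 for replicate 1, 1 for replicate 2, 3 for replicate 3, 1 for replicate 4 and 2 for replicate 5.

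Differences between the day 5 groups were tested directly. The 34 genes were ACTA2, MPC1, MPC2, PPARG and those named for the size of their change or their p-value. Of these, 24 differed between UK and Trog and 26 between UK and TrogGW, and PPARG was not tested. Over all tested genes 61.1% and 68% were called in these comparisons.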

How the results depend on the processing

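With all 10 libraries 4034 genes changed, 2059 higher in UK and 1975 lower. The number was 8067 without UK replicate 5 (4017 higher, 4050 lower), 8167 with voom quality weights, which gave that library a weight of 0.0117 (4064 higher, 4103 lower), and 8033 with library totals alone and without UK replicate 5, an alternative chosen after seeing the data (3480 higher, 4553 lower). All 25 libraries in 1 fit gave 6037 changed, 3206 higher and 2831 lower. Leaving out 1 library at a time gave 3477 to 8067 changed, 1740 to 4017 higher and 1737 to 4050 lower. DESeq2, edgeR's robust option, other size factors, no filter and a stricter filter gave 3452 to 4491 changed. The causes were not tested.

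MPC1 turned to -0.030 without UK replicate 5, -0.011 with voom quality weights and -0.13 with totals alone and without UK replicate 5, and MPC2 to -0.44, -0.45 and -0.55 (log2 fold changes). Leaving out 1 library at a time, MPC1 ran from -0.030 to 0.38 and MPC2 from -0.44 to 0.65. A block for replicate number gave 3173 changed genes (1471 higher, 1702 lower). The numbers do not pair the libraries, since the correlations of deviations between libraries of the same number ran from -0.127 to 0.318. The share of counts in the 10 highest genes kept its direction without UK replicate 5. Counting error limits genes with few counts, such as CDC20, PLIN4 and ATP6V0D2.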
